A study of Oryza sativa Indica Group with 12 samples.

Results

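Metallothioneins are small cysteine-rich proteins that bind metal ions, mainly copper and zinc, through the thiol groups of their cysteines, and that can also scavenge reactive oxygen species. Plants have several types, told apart by the arrangement of their cysteines. Type 1 genes are mostly expressed in roots, type 2 genes mostly in shoots, and other types are known from ripening fruit, leaves and seeds.

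Metallothionein probe sets were taken from all those on the array when the probe-to-gene annotation gave a symbol or synonym of MT1 to MT4 followed by a letter, or when the gene description in the study's supplementary tables named a metallothionein. This gave 21 of 57258 probe sets. The annotation found 19 of them, for 8 genes: OsMT-I-1a, OsMT-I-1b, OsMT-I-2a, OsMT-I-2b, OsMT-I-2c, OsMT-I-4a, OsMT-I-4b and OsMT-I-4c. The descriptions added 2 more, for OsMT3a (LOC_Os01g10400), described as a type 3 metallothionein, and for LOC_Os12g38290, described as a type 1 metallothionein-like protein. Both stand in the study's table of genes that rose in BR-IRGA 409, so their change in that cultivar belongs to how they were chosen and is given here as a description, with no test. OsMT-I-2c is annotated as both MT2C and OsMT2b, and OsMT-I-2b as both MT2B and OsMT2c, so the OsMT-I names are used throughout.

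RNA came from roots of 2 indica rice cultivars grown in southern Brazil, EPAGRI 108, known as tolerant to Fe toxicity, and BR-IRGA 409, known as susceptible. Plants were moved to hydroponics and, from about 20 days after germination, received 500 mg/L Fe (excess Fe) or 6.5 mg/L Fe (control) for 3 days, with FeSO4 as the Fe source in both. Each of the 4 groups has 3 biological replicates, each on 1 GeneChip Rice Genome Array, for 12 arrays. Neither the number of plants behind a replicate nor a shared growth batch is stated in the sources used here, so the p-values measure the spread between these arrays. Levels are log2 values from RMA, which corrects for background, makes the distributions of the arrays alike and combines the probes of a probe set. A difference of 1 on this scale is a doubling. For EPAGRI 108, each entry of the study's tables that could be compared has the reverse direction of the one that the array labels give, and all directions below follow the labels.

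The root markers were in place. Of 6 root marker genes 5 lay above the brightest negative control on all 12 arrays, among them LSI1, the silicon influx transporter of rice roots. Of 5 leaf marker genes 4 did so too, and of 5 seed marker genes 1 did, while 3 were never above it. Roots of whole plants hold many cell types, and fewer cells of a type and less RNA per cell cannot be told apart in such samples.

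The values of most metallothionein probe sets lay high on the log2 scale, which bears on how far a change can show and not on how much RNA a gene has. The brightest negative control probe set, which has no target in rice, lay between 4.51 and 5.01 on an array, and 18 of the 21 metallothionein probe sets were above it on all 12 arrays. The other 3, Os.35005.1.S1_at and Os.46398.1.S1_at for OsMT-I-2a and Os.12410.2.S1_at for OsMT-I-2b, were above it on none, so no fold is given for them. OsMT-I-4c, through Os.37783.1.S1_a_at, lay at the upper end of the scale of 12 of 12 arrays, between 14.45 and 14.57. RMA gives the brightest probe sets of all arrays nearly the same values, so a change at this end of the scale could hardly show. OsMT-I-1a, which takes part in zinc homeostasis in rice, lay between 13.80 and 14.04. Levels of different probe sets are not set against each other, since probes differ in how brightly they bind.

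The question put to the arrays was how root gene expression responds to excess Fe in each cultivar. In BR-IRGA 409, OsMT3a, OsMT-I-2a, OsMT-I-4a and LOC_Os12g38290 were higher with excess Fe, and the other genes were close to their control levels. Over the 19 probe sets found by annotation, 4 rose at an adjusted p under 0.05 (limma), where 4.24% of all 57258 probe sets rose, and none fell, where 3.41% of all probe sets did. Among the 724 probe sets with a mean of at least 12, the range of most of this family, 5.25% rose. Of the 4, 3 are probe sets of OsMT-I-2a and the other is of OsMT-I-4a, so they do not stand for 4 separate genes. One of the 4 is the dim OsMT-I-2a probe set Os.35005.1.S1_at, for which no fold is given and whose call was lost in several settings. None of the 19 rose by at least 3-fold, where 1.1% of all probe sets did, and 5 of them had an unadjusted p under 0.05. The 2 probe sets found by description were also higher, and their change in this cultivar is described below without a test. In EPAGRI 108 none of the 19 rose or fell at an adjusted p under 0.05 (limma), where 0.770% of all probe sets rose and 0.222% fell. Of these 19, 4 had an unadjusted p under 0.05 (limma), all 4 of them higher, where 5911 of all 57258 probe sets had one in either direction. The methods' t-test with adjustment called 0 of all 57258 probe sets in EPAGRI 108, so it says nothing particular about these 19. The 2 probe sets found by description were called higher in EPAGRI 108. One of them, LOC_Os12g38290, passed 3-fold, where 0.283% of all probe sets did. Both were picked from tables of genes that changed with excess Fe, so these 2 calls cannot be read against the shares of all probe sets. The median over the 19 was 0.19 in BR-IRGA 409 and -0.02 in EPAGRI 108, against -0.03 and -0.01 over all probe sets.

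**Figure D1:**
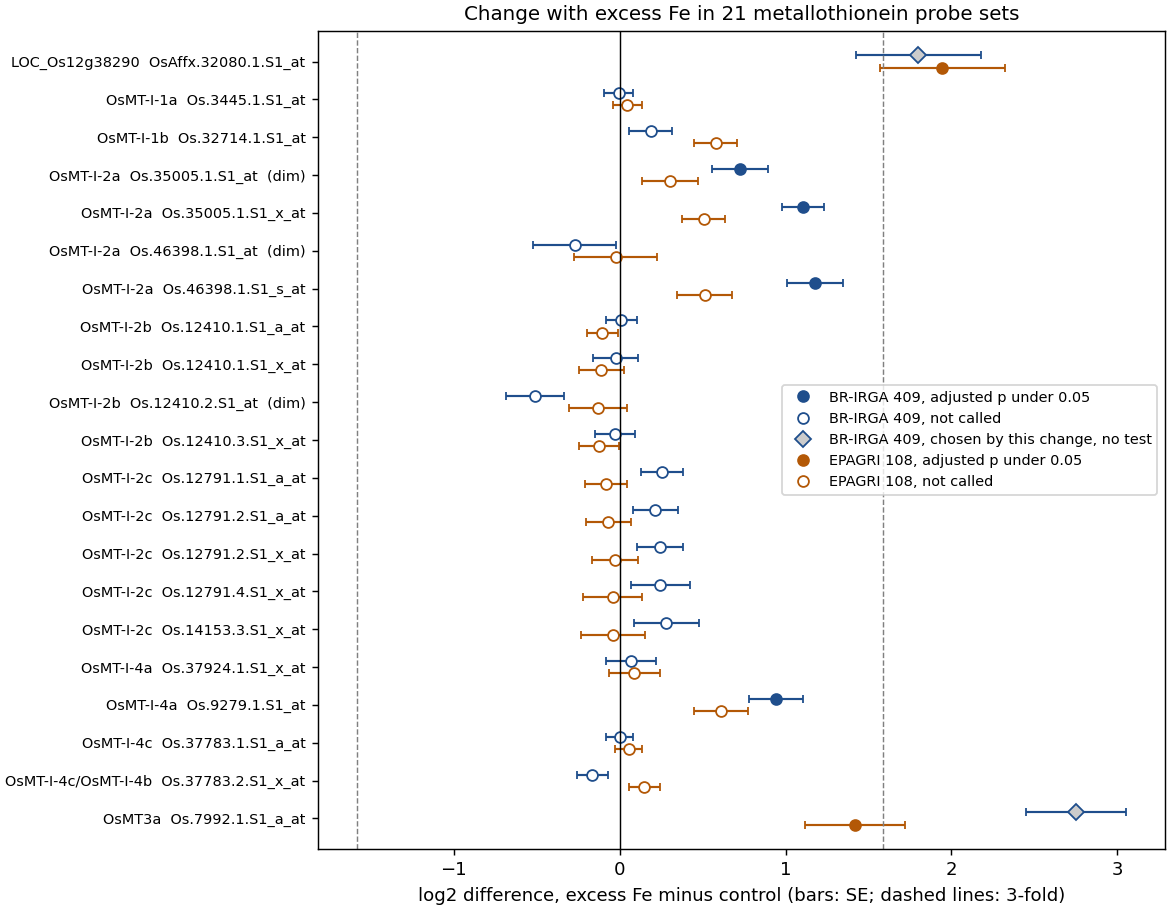
Change with excess Fe in each of the 21 metallothionein probe sets, as the log2 difference of excess Fe minus control (x axis) with its SE, in BR-IRGA 409 (blue) and EPAGRI 108 (orange). Filled round points have an adjusted p under 0.05, grey diamonds mark the 2 probe sets chosen by this change in BR-IRGA 409 and not tested there, dashed lines mark 3-fold and "dim" marks the 3 probe sets below the negative controls. OsMT3a lies farthest to the right in BR-IRGA 409, at 2.75, while the OsMT-I-1a, OsMT-I-2b and OsMT-I-4c genes lie near 0 in both cultivars apart from 1 dim probe set.

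OsMT3a (Os.7992.1.S1_a_at) changed most in BR-IRGA 409, the change by which it was chosen, and LOC_Os12g38290 in EPAGRI 108. In BR-IRGA 409 control roots its log2 levels were 8.92, 8.88 and 8.48 on the 3 arrays. With excess Fe they were 11.77, 11.36 and 11.40. The groups lay far apart, by 2.75 (SE 0.30) on the log2 scale, which is 6.73-fold. In EPAGRI 108 control roots the levels were 10.77, 9.36 and 9.49, and with excess Fe 11.12, 11.21 and 11.54. The first control array was more than 1 log2 unit above the other 2, yet all 3 excess Fe arrays lay above it. This change was 1.42 (SE 0.30, 2.67-fold, limma adjusted p 0.0496). It was just inside the threshold. With the replicate number as a block within each cultivar the limma adjusted p was 0.0712, and 0 of all 57258 probe sets were called in EPAGRI 108. Without EPAGRI 108 control replicate 1 the change was 1.87 (limma adjusted p 1.08e-04), and without excess Fe replicate 1 of that cultivar the call held too. Without any 1 of the other 10 arrays, those of BR-IRGA 409 included since all arrays share 1 estimate of the spread, it was lost, at limma adjusted p up to 0.252. In those fits at most 1 of all 57258 probe sets was called in EPAGRI 108, so the loss is not particular to OsMT3a.

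The 4 groups of OsMT3a had an order in which the control roots of BR-IRGA 409 were lowest, with a mean of 8.76 ± 0.24 (SD, n = 3), followed by EPAGRI 108 control at 9.87 ± 0.78. The excess Fe groups were close to each other, at 11.29 ± 0.22 in EPAGRI 108 and 11.51 ± 0.23 in BR-IRGA 409. All 3 EPAGRI 108 control arrays exceeded all 3 of BR-IRGA 409, with a difference of 1.11 (SE 0.30). The difference between cultivars in excess Fe was -0.22 (SE 0.30), EPAGRI 108 minus BR-IRGA 409. The change was larger in BR-IRGA 409 by 1.33 (SE 0.43). All of these are given without a test, since they use the BR-IRGA 409 arrays whose rise chose the probe set.

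LOC_Os12g38290 (OsAffx.32080.1.S1_at) rose by nearly the same amount in both cultivars. Its levels in BR-IRGA 409 were 11.08, 11.54 and 11.27 in control and 13.01, 13.23 and 13.04 with excess Fe, a difference of 1.80 (SE 0.38, 3.48-fold) between groups that did not overlap. In EPAGRI 108 they were 11.32, 9.90 and 10.32 in control and 11.92, 12.07 and 13.37 with excess Fe. These groups did not overlap either, although they were more spread, with the first control array high and the third excess Fe array high. The change was 1.94 (SE 0.38, 3.85-fold, limma adjusted p 0.0395). The study's tables it was picked from also cover changes in EPAGRI 108, so this p-value may not be independent of the choice. With the replicate block within each cultivar the adjusted p was 0.0712, and without EPAGRI 108 control replicate 1 the change was 2.35 (limma adjusted p 0.00195). This call held without excess Fe replicate 1 and was lost without any 1 of the other 10 arrays, with a change of 1.49 without excess Fe replicate 3. With the block 0 of all 57258 probe sets were called in EPAGRI 108, and in the fits that lost the call at most 1, so the loss is not particular to this gene. The responses of the 2 cultivars differed by -0.14 (SE 0.53), so a difference of 1 log2 unit either way lies within about 2 SE.

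OsMT-I-2a, a type 2 metallothionein, was measured by 2 probe sets above the negative controls, and both moved the same way. Through Os.46398.1.S1_s_at its levels in BR-IRGA 409 were 11.51, 11.80 and 11.98 in control and 13.08, 12.84 and 12.91 with excess Fe. This rise of 1.18 (SE 0.17, 2.26-fold, limma adjusted p 0.00106) was larger than the spread within either group. Through Os.35005.1.S1_x_at the levels were 7.18, 7.09 and 7.20 in control and 8.46, 8.00 and 8.33 with excess Fe, a rise of 1.11 (SE 0.13, 2.15-fold, limma adjusted p 2.93e-04). Names ending in _s_at or _x_at mark probe sets that may also bind transcripts of other genes, and the probe sets of this gene without such an ending were the 2 dim ones. With the methods' t-test after adjustment both calls were lost (adjusted p 0.0608 and 0.0589). In EPAGRI 108 both probe sets were 0.51 higher with excess Fe, with groups that did not overlap, but neither passed the threshold (limma adjusted p 0.217 and 0.0874). Under excess Fe the cultivars were at like levels, with EPAGRI 108 at 12.79, 12.64 and 13.08 through Os.46398.1.S1_s_at. The 2 probe sets correlated at 0.94 over the 12 arrays, which they share. The difference of responses was 0.66 (SE 0.24) and 0.60 (SE 0.18), with unadjusted p of 0.0153 and 0.00607 and limma adjusted p of 0.794 and 0.572.

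OsMT-I-4a is also annotated as OsIDS1, after a barley cDNA of Fe-deficient roots that encodes a metallothionein-like protein. Its 2 probe sets disagreed. Through Os.9279.1.S1_at the levels in BR-IRGA 409 were 12.42, 12.44 and 12.39 in control and 13.44, 13.34 and 13.29 with excess Fe, a rise of 0.94 (SE 0.16, 1.92-fold, limma adjusted p 0.00370). In EPAGRI 108 they were 13.30, 12.81 and 13.00 in control and 13.46, 13.44 and 14.05 with excess Fe. These groups did not overlap, and the change of 0.61 (SE 0.16) had an adjusted p of 0.109 (limma). All 3 EPAGRI 108 control arrays lay above all 3 BR-IRGA 409 control arrays, by 0.62 on average (SE 0.16, limma adjusted p 0.0708). Through Os.37924.1.S1_x_at, for which the annotation lists 2 genes, levels were between 12.45 and 12.93 in all groups and the changes were 0.07 (SE 0.15) and 0.09 (SE 0.15). The 2 probe sets correlated at 0.19 over the 12 arrays.

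**Figure D2:**
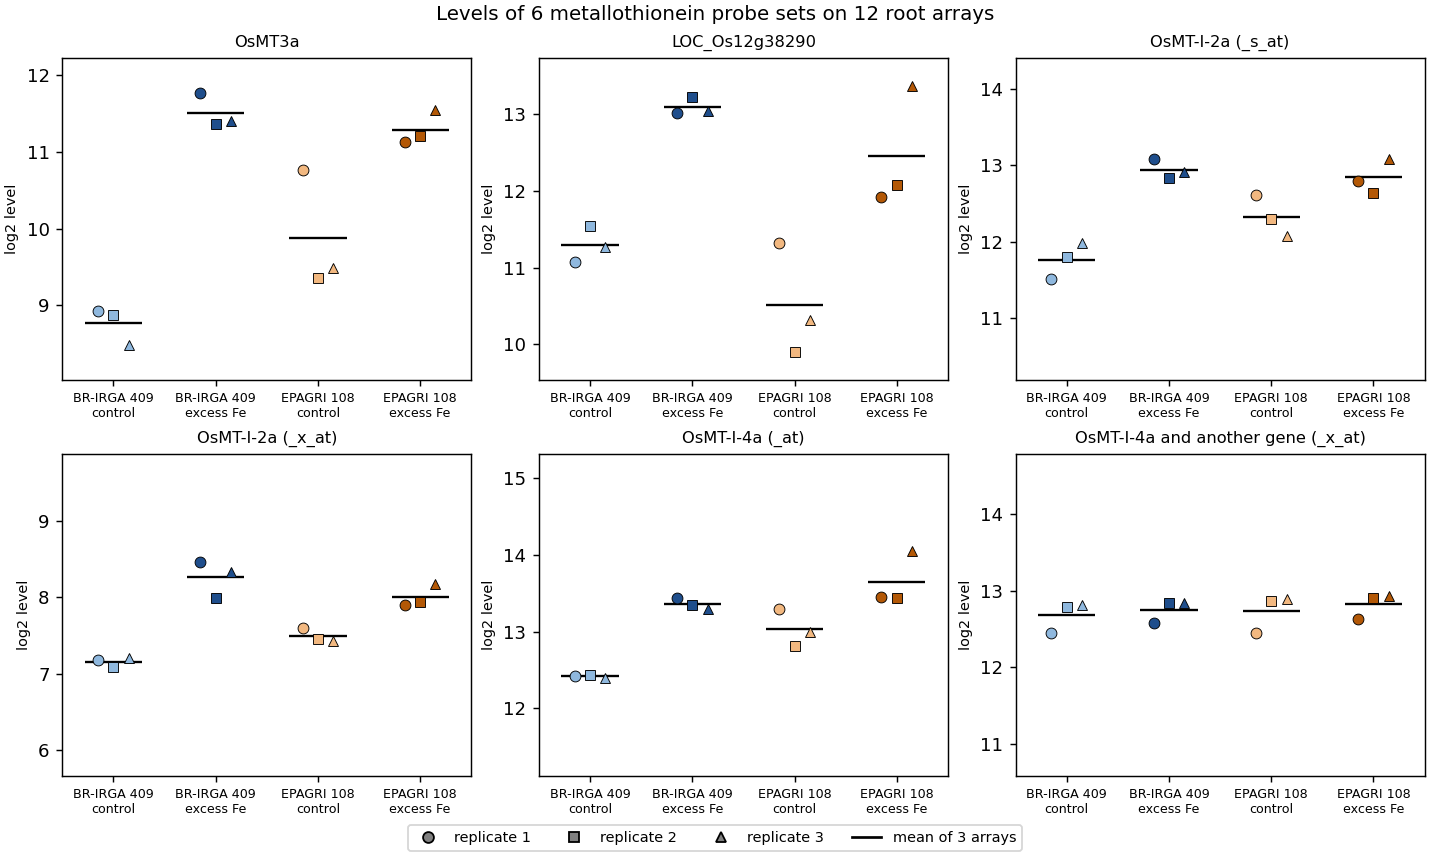
Levels (log2, y axis) of 6 metallothionein probe sets on each of the 12 arrays, by cultivar and treatment (x axis), with symbols for the replicate number and a line at the mean of 3 arrays, each panel spanning 4.2 log2 units. OsMT3a, LOC_Os12g38290, both OsMT-I-2a probe sets and Os.9279.1.S1_at of OsMT-I-4a were higher on every excess Fe array than on any control array of the same cultivar, while Os.37924.1.S1_x_at stayed between 12.45 and 12.93.

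OsMT-I-1b did not pass the threshold in either cultivar. Its levels in EPAGRI 108 were 13.18, 12.68 and 12.72 in control and 13.35, 13.43 and 13.54 with excess Fe, which is 0.58 higher (SE 0.13, limma adjusted p 0.0568). In BR-IRGA 409 they were 13.32, 13.41 and 13.41 in control and 13.54, 13.61 and 13.54 with excess Fe, a difference of 0.19 (SE 0.13, limma adjusted p 0.522). The difference of responses was -0.39 (SE 0.18, unadjusted p 0.0525). In control roots OsMT-I-1b was 0.52 lower in EPAGRI 108 (SE 0.13, limma adjusted p 0.0513).

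Counting groups that did not overlap, 7 of 21 probe sets were higher on every excess Fe array than on any control array in BR-IRGA 409, where 11.1% of all probe sets were. The count was also 7 in EPAGRI 108, where 6.34% of all probe sets were. They were the same 7 probe sets in both cultivars, where 3.58% of all probe sets were higher in both, and 5 of them are among the 19 found by annotation. The 7 are those of OsMT3a, LOC_Os12g38290 and OsMT-I-1b, 3 of OsMT-I-2a, 1 of them dim, and Os.9279.1.S1_at of OsMT-I-4a. Since 3 of them read 1 gene on the same arrays, the 7 are not separate genes. In the other direction 1 of 21 did not overlap in each cultivar, where 13.1% and 7.07% of all probe sets did not. Both probe sets found by description are among the 7, and for these the order in BR-IRGA 409 goes with how they were chosen.

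The other genes of the family kept close to their control levels. OsMT-I-1a differed by -0.01 (SE 0.09) in BR-IRGA 409 and by 0.04 (SE 0.09) in EPAGRI 108. OsMT-I-4c differed by 0.00 (SE 0.08) and 0.05 (SE 0.08), at the top of the scale. Its second probe set Os.37783.2.S1_x_at, for which the annotation lists 3 genes, OsMT-I-4b among them, lay between 13.77 and 14.15. It differed by -0.16 (SE 0.09) and 0.15 (SE 0.09). OsMT-I-4b has no probe set of its own here. In the rice annotation (RefSeq, assembly ASM3414082v1) OsMT-I-4a and OsMT-I-4c stand on the same chromosome with 1 gene between them, and OsMT-I-4b is 24 genes away from OsMT-I-4a. The 3 bright probe sets of OsMT-I-2b lay between 12.48 and 13.64 and differed by -0.03 to 0.01 in BR-IRGA 409 and by -0.12 to -0.11 in EPAGRI 108. In control roots they were 0.23 to 0.25 higher in EPAGRI 108, with limma adjusted p of 0.356 or above.

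OsMT-I-2c differed between the cultivars and not detectably with treatment. The name OsMT2b, which the annotation gives this gene, is used in rice for a metallothionein that scavenges reactive oxygen species and is repressed through the small GTPase OsRac1. Through Os.12791.1.S1_a_at its levels in BR-IRGA 409 were 12.85, 13.16 and 13.05 in control and 13.41, 13.10 and 13.30 with excess Fe. In EPAGRI 108 they were 12.31, 12.47 and 12.19 in control and 12.37, 12.12 and 12.23 with excess Fe. The highest EPAGRI 108 array, at 12.47, was below the lowest BR-IRGA 409 array, at 12.85, whatever the treatment.

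The other 4 probe sets of OsMT-I-2c gave the same picture, and in each of the 5 all 6 EPAGRI 108 arrays lay below all 6 BR-IRGA 409 arrays, where 2.01% of all probe sets did so. In control roots the difference was between -0.72 and -0.63, and 4 of 5 probe sets passed the threshold. They were the only 4 of the 19 probe sets found by annotation that did, where 1.62% of all probe sets were lower in EPAGRI 108. Through Os.12791.1.S1_a_at the control difference was -0.70 (SE 0.13, 1.62-fold lower in EPAGRI 108, limma adjusted p 0.00644), and Os.14153.3.S1_x_at, which missed the threshold, gave -0.70 (SE 0.20, limma adjusted p 0.0905), though it passed with array weights (adjusted p 0.0124) and without EPAGRI 108 control replicate 1 (adjusted p 0.0465). The control calls depended on single arrays, with a count of 1 without EPAGRI 108 control replicate 3 or without BR-IRGA 409 control replicate 2 or 3, and 2 without BR-IRGA 409 control replicate 1. In excess Fe roots the difference was between -1.03 and -0.92, and all 5 passed (limma adjusted p 2.43e-04 to 0.00856), where 2.00% of all probe sets were lower. No other probe set found by annotation differed between the cultivars in excess Fe by limma at an adjusted p under 0.05. One of them, the dim Os.35005.1.S1_at of OsMT-I-2a, had an unadjusted p under 0.05 (0.00788), and the methods' t-test with adjustment called none of the 21. None of the 19 found by annotation was called higher in EPAGRI 108, where 1.64% of all probe sets were in control and 1.65% in excess Fe. None of these 19 was called at 3-fold or more, where 0.604% of all probe sets were higher and 0.510% lower in control, and 0.590% higher and 0.596% lower in excess Fe.

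The 5 probe sets are repeated readings of 1 gene on the same arrays, correlated at 0.87 to 0.99, and 3 of them are _x_at sets. The array was designed mainly on japonica transcripts and its probes were not checked against the sequences of these 2 cultivars, so a difference in level and a difference in how the transcript binds the probes cannot be told apart. With excess Fe the 5 probe sets were 0.21 to 0.28 higher in BR-IRGA 409 and 0.03 to 0.08 lower in EPAGRI 108, and none passed the threshold (lowest limma adjusted p 0.323 and 0.959). The difference of responses was between 0.27 and 0.34, with a lowest unadjusted p of 0.0840.

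**Figure D3:**
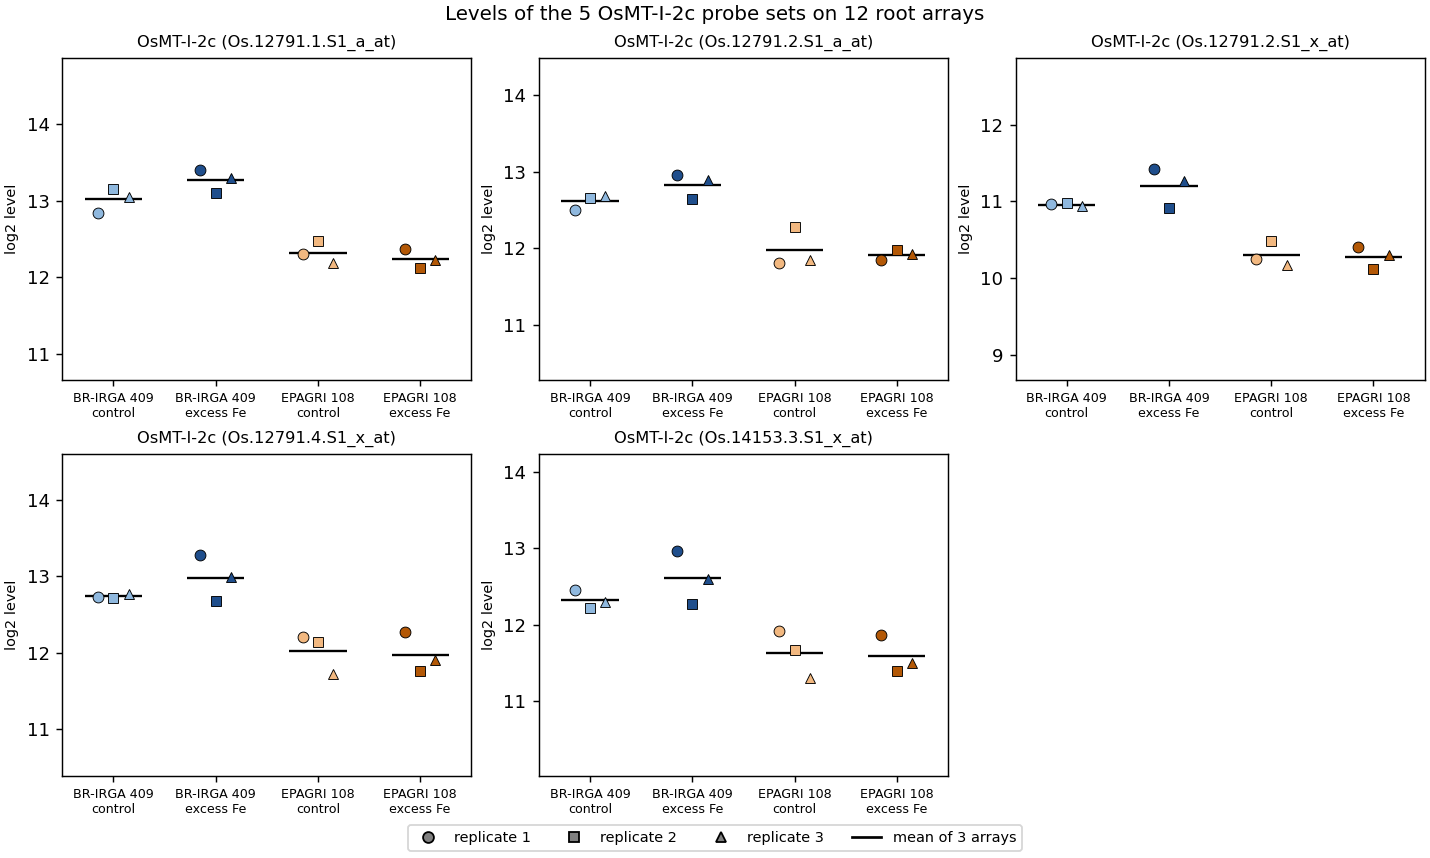
Levels (log2, y axis) of the 5 OsMT-I-2c probe sets on each of the 12 arrays by cultivar and treatment (x axis), with symbols for the replicate number and a line at the mean of 3 arrays. In every panel the 6 EPAGRI 108 arrays lie below the 6 BR-IRGA 409 arrays, for Os.12791.1.S1_a_at between 12.12 and 12.47 against 12.85 to 13.41.

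**Figure D4:**
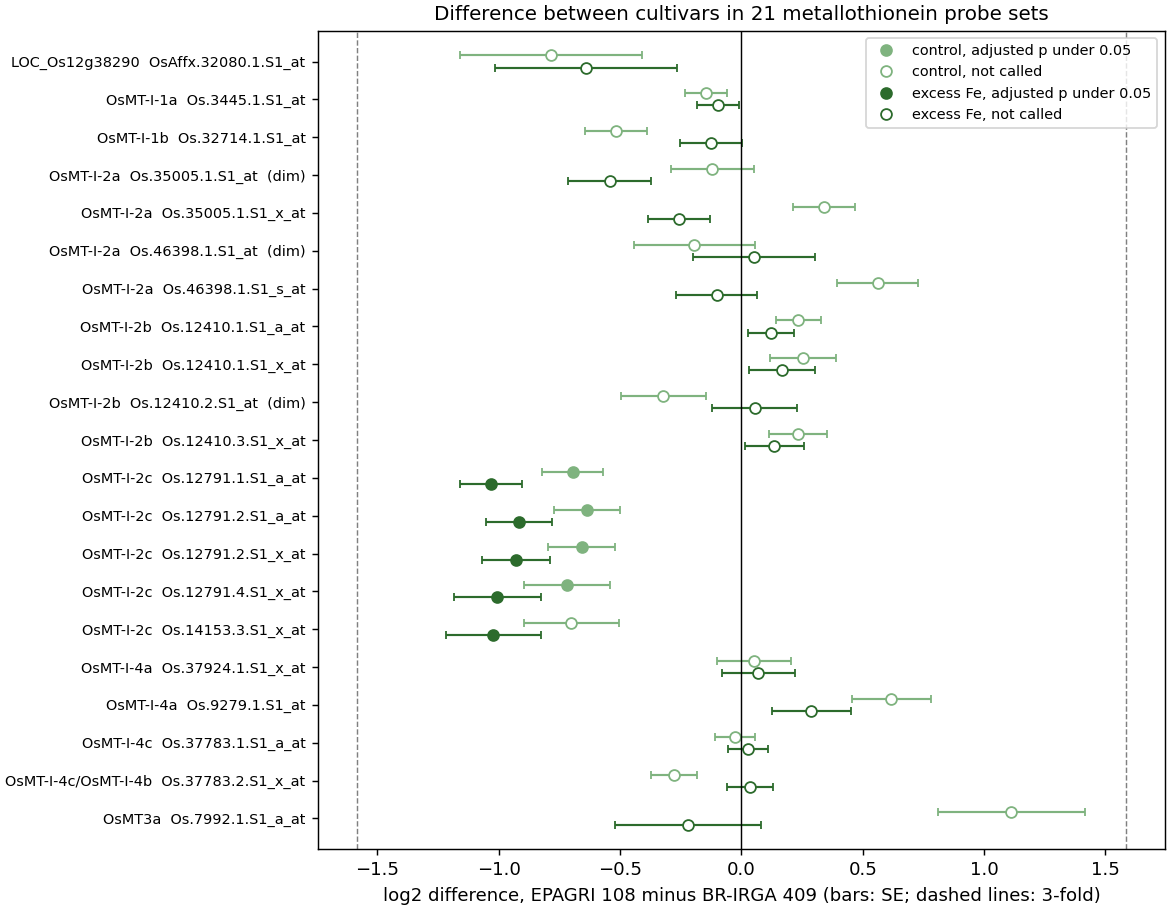
Difference between the cultivars in each of the 21 probe sets, as log2 EPAGRI 108 minus BR-IRGA 409 (x axis) with its SE, in control (light green) and in excess Fe (dark green), with filled points at an adjusted p under 0.05 and dashed lines at 3-fold. The called points are all OsMT-I-2c, between -1.03 and -0.63. OsMT3a in control lies farthest to the right, at 1.11, a difference given here without a test.

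The leaf markers were also lower in EPAGRI 108. Their summed linear level ran from 3633 to 7280 on BR-IRGA 409 control arrays and from 1072 to 2313 on EPAGRI 108 control arrays, and from 2829 to 3727 against 1061 to 1374 with excess Fe. Of the 5, 3 were lower in control and 1 in excess Fe by limma, where 1.62% and 2.00% of all probe sets were. Their median difference was -0.63 in control and -0.24 in excess Fe. The part of these markers in the OsMT-I-2c values was not tested. Root marker sums overlapped between the cultivars in control, 22203 to 27543 against 22332 to 28898. With excess Fe in BR-IRGA 409, 2 of 6 root, 3 of 3 xylem and 2 of 3 meristem markers fell at an adjusted p under 0.05 (limma). So did 1 of 5 leaf markers, where 3.41% of all probe sets fell. The part of all these markers in the rises of that cultivar was not tested. Xylem marker sums there went from between 7005 and 7857 to between 4660 and 4989.

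The interaction of cultivar and treatment called none of the 19 probe sets found by annotation in limma. Of these, 3 had an unadjusted p under 0.05, where 2695 of all 57258 probe sets did: both bright OsMT-I-2a probe sets and Os.37783.2.S1_x_at. Over all probe sets 0.119% had a larger and 0.0681% a smaller response in BR-IRGA 409 at an adjusted p under 0.05. So a rise called in BR-IRGA 409 and not in EPAGRI 108, as for OsMT-I-2a and OsMT-I-4a, is not shown to differ between them.

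Other genes that handle the metals metallothioneins bind gave a mixed picture. Of 7 copper handling genes, 1 rose and 2 fell in BR-IRGA 409 at an adjusted p under 0.05 (limma), where 4.24% of all probe sets rose and 3.41% fell. None changed in EPAGRI 108, where 0.770% of all probe sets rose and 0.222% fell. COPT1, a copper uptake transporter named here after its values were seen, fell by 1.01 on the log2 scale (SE 0.14, limma adjusted p 7.73e-04). Of 19 zinc, cadmium and manganese handling genes, 6 rose and 3 fell in BR-IRGA 409, and 2 rose by at least 3-fold, where 1.1% of all probe sets did. These were MTP3, of a family of metal tolerance proteins that move divalent metals out of the cytosol (1.99, SE 0.20, limma adjusted p 1.25e-04), and ZIP4, a zinc transporter (2.01, SE 0.24, limma adjusted p 3.48e-04). In EPAGRI 108, where 0.770% of all probe sets rose, MTP3 alone of the 19 passed, at 1.21 (SE 0.20, limma adjusted p 0.0355). This call was lost with the replicate block within each cultivar, where 0 of all probe sets were called in EPAGRI 108, and likewise with 16 added, with the methods' t-test after adjustment and with only the 6 arrays compared. None of the 15 symbols listed for phytochelatin and glutathione synthesis matched a probe set through the annotation used here.

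The genes whose levels followed OsMT3a most closely, among 18470 probe sets with 1 gene listed and a level above the negative controls on at least 3 arrays, were LOC4327214, LOC4349585 and LOC4340483, with Pearson correlations of 0.995, 0.992 and 0.991 over the 12 arrays. LOC4349585 is described as a cationic peroxidase and changed by 4.20 (SE 0.40) in BR-IRGA 409 and 2.42 (SE 0.40) in EPAGRI 108. For LOC_Os12g38290 they were LOC4348831, LOC4324066 and LOC4336847, with correlations of 0.983, 0.971 and 0.967. These points share the arrays and the treatment, and the correlations are a description.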

How the data were processed

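The authors scanned the arrays with GCOS 1.2.1 and made 1 log2 value per probe set and array with RMA in ArrayAssist, and these deposited log2 values were used as given. Their methods also add a fixed quantity of unstated size to the linear values before testing. The table has 57381 probe sets, and without the 123 that serve as controls 57258 remained. The metallothionein probe sets, the gene lists and the markers were chosen with earlier results of these data known. Only the description columns of the supplementary tables were read, since their symbol columns do not line up with the probe sets. The tables' p-values and folds were used for nothing but a check of direction.

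A model with 1 mean per group was fitted to all 12 arrays in limma 3.58.1 (R 4.3.3), which leaves 8 residual degrees of freedom and moderates the variances. Contrasts were the response to excess Fe of either cultivar, the difference of these responses, and the cultivars in each treatment. Every p-value is two-sided, and the Benjamini-Hochberg adjustment ran over all 57258 probe sets. A probe set was called at an adjusted p under 0.05, and at least 3-fold is stated where used. All metallothionein probe sets were named, from each metal list up to 6 genes called at 3-fold, and for each probe set found by description its 3 closest genes. Each list gene has 1 probe set, the brightest of those listed. Tested on simulated data for excess Fe in BR-IRGA 409 over 57258 probe sets, 75% of 2-fold and 93% of 4-fold changes among 200 altered probe sets were found, with 13 false calls. The number of arrays limits the precision.

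Same-numbered arrays were checked for pairing after subtraction of the group means. Their correlation lay between 0.11 and 0.49 for all 6 pairs within a cultivar, above the limit of 0.1, so the number was used as a block within each cultivar as an alternative. The labels state no pairing. Other alternatives were the methods' t-test, the block over all groups, 16 added to the linear values, other scalings, only the 6 arrays compared, a filter on dim probe sets, a variance trend, array weights, and each array left out. Python 3.11.15 with pandas 2.3.3 handled the tables, and matplotlib 3.10.9 drew the plots.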

Additional observations from a re-analysis of the deposited data

How the results depend on the processing

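In BR-IRGA 409 the count of metallothionein probe sets at an adjusted p under 0.05 was 6, of which 4 were found by annotation and 2 are in the count by how they were chosen, and 3 with the methods' t-test after adjustment. At 3-fold the count was those same 2, which is no sign of stability, and at 1.5-fold, a limit chosen after seeing the data, it was 6. In EPAGRI 108 the 2 calls and the 1 call at 3-fold became 0 and 0 with the t-test after adjustment, with the replicate block within each cultivar, with 16 added and with only the 6 arrays compared. In each of these settings 0 of all 57258 probe sets were called in EPAGRI 108, so the loss is not particular to these probe sets. With a variance trend they were 1 and 0, where 336 of all probe sets rose and 108 fell at any fold. With array weights they were 6 and 2, where 1940 rose and 1478 fell. The unadjusted t-test called 5, where 2093 rose and 2070 fell. Arrays at a common median gave 1 call at any fold, where 327 rose and 85 fell, and 1.5-fold gave 2. Replicate 1 arrays had the lowest weights, 0.382 to 0.607 against 0.978 to 1.98.

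For the cultivars in control, the 4 calls became 0 with the adjusted t-test, 13 with the unadjusted one, 7 with a variance trend, 7 with array weights and 2 of 12 without _x_at and _s_at probe sets. OsMT3a is among the 7 with array weights, which is no test of it, given how it was chosen. In excess Fe the 5 calls became 0 with the adjusted t-test and 2 of those 12. At 1.5-fold the counts were 4 and 5, against 0 at 3-fold. With the replicate block over all 4 groups, which the pairing check did not bear out, the control difference of Os.14153.3.S1_x_at passed (limma adjusted p 0.00887). With 1 array left out, the calls ranged from 5 to 7 in BR-IRGA 409 (2 at 3-fold), 0 to 4 in EPAGRI 108 (0 to 2 at 3-fold), 1 to 4 for the cultivars in control and 4 to 6 in excess Fe, and stayed at 0 for the interaction. Where the EPAGRI 108 count was 0, at most 1 of all 57258 probe sets was called there. The control count fell to 1 without EPAGRI 108 control replicate 3 or BR-IRGA 409 control replicate 2 or 3.

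With the EPAGRI 108 labels exchanged, the interaction called 7 of 21 and 4 at 3-fold, with LOC_Os12g38290 at 3.75 and OsMT-I-1b at 0.77, both of opposite sign to their values by the labels. Over all 57258 probe sets 2934 then had a larger and 2786 a smaller response in BR-IRGA 409, and 1299 and 539 at 3-fold. OsMT3a and LOC_Os12g38290 are in both metallothionein counts and were chosen by their rise in BR-IRGA 409, so these calls are no test of them. The cultivar counts were then 9 in control and 11 in excess Fe, with 1 and 2 at 3-fold. Of all 57258 probe sets 2714 were then higher and 2715 lower in EPAGRI 108 in control, and 2200 and 2737 in excess Fe. At 3-fold 774 were higher and 394 lower in control, and 381 and 708 in excess Fe. The metallothionein counts all include OsMT3a, and those in excess Fe LOC_Os12g38290 too, again with no test of either. OsMT-I-2c was lower in EPAGRI 108 in 5 of 5 probe sets in both treatments. Of the zinc, cadmium and manganese genes, 2 were called in BR-IRGA 409 at 3-fold, 1 with the adjusted t-test and 2 to 3 with 1 array left out.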
